A study of Mus musculus with 2 samples.

Results

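The miR-30 family comprises 6 microRNA genes in mouse, Mir30a, Mir30b, Mir30c-1, Mir30c-2, Mir30d and Mir30e, which lie as 3 genomic pairs on different chromosomes. They were taken here as the rows whose Ensembl identifier carries 1 of these 6 names in the GENCODE M21 annotation, out of 2202 annotated microRNA loci in the deposited tables. All 6 were found. The study sequenced RNA shorter than 30 nt from the left cerebral cortex of female mice aged 14 days. Their strain was B6CASTF1/J, the first-generation cross of C57BL/6J with a CAST parent. There is 1 group of 2 replicates, with no treatment, mutant or other tissue. The label of replicate 1 names several females and that of replicate 2 a single one, without saying if animals were pooled. Both carry the same donor record, and technical differences between these libraries cannot be told apart from differences between animals. The p-values below set such differences against counting error alone and do not measure spread between animals.

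A microRNA is cut from a hairpin transcript, which can release one mature strand from its 5′ side (5p) and another from its 3′ side (3p). The seed, bases 2 to 8 of the mature strand, is the part that pairs with target messenger RNAs and defines a family. The miR-30 family is conserved across vertebrates and is known from many tissues, kidney and heart among them; in cortex miR-30a has been described as acting on transcripts of the neurotrophin gene Bdnf. Each row of the tables covers a whole hairpin locus, so the reads of the 5p and the 3p strand are not separated below.

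RefSeq sequences on build GRCm38.p6 were matched for 4 of the 6 members (Mir30a, Mir30c-1, Mir30c-2 and Mir30e; Mir30b and Mir30d had no entry). The 5p strands are shown first because they define the family. Capitals mark the seed, which is the same in each of these lines, and the last line is Mir384, a gene on the X chromosome outside the named members that carries the same seed.
miR-30a-5p: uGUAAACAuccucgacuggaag
miR-30e-5p: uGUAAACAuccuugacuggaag
miR-30c-5p: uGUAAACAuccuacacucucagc
miR-384-5p: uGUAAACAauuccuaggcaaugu

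Counting from the 5′ end, miR-30a-5p and miR-30e-5p differ at 1 of 22 positions (C13U, the miR-30a base first). The first difference between miR-30a-5p and miR-30c-5p also comes after 12 identical bases, and 5 of 22 positions differ. Beyond the seed miR-384-5p differs from miR-30a-5p at 10 of 22 positions. Among the 1058 loci of the table that were searched, 5 carried this seed: the 4 matched members and Mir384. Both miR-30c genes encode an identical 5p strand, and no other mature strand of the matched members is encoded at another of the loci searched.

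The 3p strands fall into a pair of seed groups and are shown because they are where the miR-30c genes differ. Capitals again mark bases 2 to 8.
miR-30a-3p: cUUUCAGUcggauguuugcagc
miR-30e-3p: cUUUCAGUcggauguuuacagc
miR-30c-1-3p: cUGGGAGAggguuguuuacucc
miR-30c-2-3p: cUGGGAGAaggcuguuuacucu

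The first group, of Mir30a and Mir30e, differs at 1 position (G18A, the miR-30a base first). Strands miR-30c-1-3p and miR-30c-2-3p differ at 3 positions (G9A, U12C and C22U, the miR-30c-1 base first). The 3p seed of the miR-30c genes is also that of a strand of Mir6958.

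The longest stretch shared by the Mir30c-1 and Mir30c-2 hairpins is 28 nt long and holds the whole of miR-30c-5p, which is in capitals in the next line.
shared stretch: UGUAAACAUCCUACACUCUCAGCuguga

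A read that lies wholly within it matches both loci. The next longest stretch among the matched members was 18 nt, between Mir30a and Mir30e. Reads with more than 1 match in the genome are set aside in the deposited tables in a row of their own (3142330 reads, or 40.6%, in replicate 1 and 3645348, or 37.9%, in replicate 2), and the loci they came from are not given. Counts at Mir30c-1 and Mir30c-2 are therefore uncertain as levels of miR-30c.

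Replicate 1 held 7745369 reads, of which 2740332 (35.4%) were assigned to a microRNA locus on the RNA strand, and replicate 2 held 9627908, of which 3207941 (33.3%) were so assigned. Levels are assigned reads scaled to 1000000 per library (CPM). A locus counted as detected when it had 10 or more reads in each library. Of the 9 neuronal marker loci 6 were detected, with a summed level of 33266 CPM in replicate 1 and 42370 in replicate 2. Those not detected were Mir124a-1, Mir124a-2 and Mir124a-3. These loci share a name, and reads matching several loci were set aside. Their counts therefore do not give the level of miR-124. The same limit holds for other listed loci with a copy of the same name, also where the count was 0. Mir128-1 (14732 and 48629 reads), Mir128-2 and Mir137 were higher in replicate 2, and Mir132, Mir138-1 (18603 and 11725 reads) and Mir138-2 lower. Of the 7 loci known from muscle, heart, liver or endocrine tissue 3 were detected, at 273 and 200.1 CPM in all, with 3 at 0 in both libraries. Oligodendrocyte markers (both detected) summed to 4262 and 1466 CPM, endothelial and mural markers (3 of 3 detected) to 21215 and 13607, and erythroid markers (both detected) to 952 and 564, each sum lower in replicate 2. Within these lists the mural Mir145a (355 and 603 reads) and the erythroid Mir144 (119 and 172 reads) were higher in replicate 2, against the sums. Microglial and leukocyte markers (4 of 5 detected) summed to 1563 and 1888 CPM and the choroid plexus marker Mir204 stood at 445 and 893, both higher in replicate 2. The microglial and leukocyte list was mixed. Mir150 (1419 and 3426 reads) and Mir142 (140 and 219) were higher in replicate 2, and Mir146 (2388 and 2102) and Mir155 (332 and 265) lower. Mir142 (adjusted p = 0.174) and Mir144 (adjusted p = 0.577) did not pass the exact binomial test between the libraries described below. The part of these differences in the values of the miR-30 loci was not tested. In bulk tissue, fewer cells of a type and less RNA per cell cannot be told apart.

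All 6 members were detected, against 17.7% of annotated loci. Together they held 50611 reads in replicate 1 and 67820 in replicate 2, which is 1.85% (exact binomial 95% interval 1.83 to 1.86%) and 2.11% (2.10 to 2.13%) of assigned reads, or 1.98 ± 0.189% (SD, n = 2). These intervals describe counting error of reads alone. The labels name no molecular identifiers, so reads cannot be taken as separate molecules. The members fell into an abundant group, Mir30d, Mir30a and Mir30e, and a group of low counts, Mir30c-2, Mir30c-1 and Mir30b. The abundant group held 97.4% of the family's reads in replicate 1 and 98.0% in replicate 2.

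**Figure D1:**
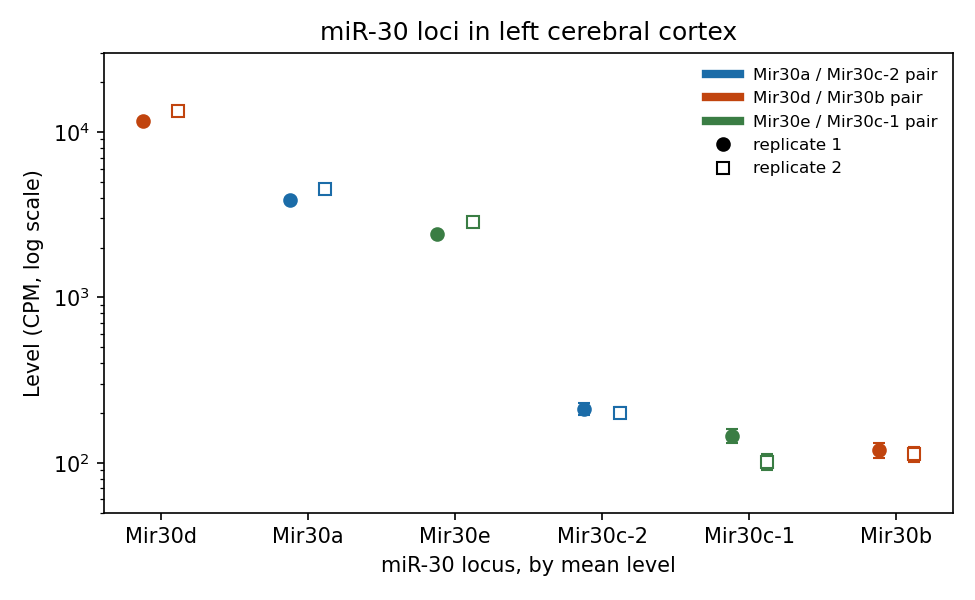
Level of each miR-30 locus (CPM, log scale) in replicate 1 (filled circles) and replicate 2 (open squares), ordered by mean level; bars are exact binomial 95% intervals of the counts and colours mark the genomic pairs. In both libraries each pair has 1 locus at 2407 CPM or more and 1 at 211 CPM or less.

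The pair on chromosome 15 supplied most of the family's reads, 63.9% in replicate 1 and 63.6% in replicate 2. Mir30d (ENSMUSG00000065437.1, mm10, chromosome 15, 68341208 to 68341289, minus strand) lies wholly within an exon of the long non-coding RNA gene Gm20732. It had 32026 reads (11687 CPM) in replicate 1 and 42741 reads (13323 CPM) in replicate 2, a mean of 12505 ± 1157 CPM (SD, n = 2). It ranked 20 among all 2202 loci by mean level and alone held 63.3% and 63.0% of the family's reads.

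Its partner Mir30b (ENSMUSG00000065476.2, chromosome 15, 68337415 to 68337510, minus strand) lies 3.70 kb downstream, with 16 of its 96 nt inside an exon of the non-coding gene Gm26621. It had 326 reads (119 CPM) and 361 reads (113 CPM), a mean of 116 ± 4.55 CPM and rank 205. Mir30d thus exceeded Mir30b 98.2-fold in replicate 1 and 118-fold in replicate 2, the widest gap in counts of the 3 pairs in both libraries. Neither locus had a sequence entry, so how many of their reads matched other loci and were set aside was not assessed. MicroRNA reads cover a mature strand rather than a whole hairpin, so levels were not divided by length; per kilobase of annotated hairpin the folds were 115 and 139.

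On chromosome 1, Mir30a and Mir30c-2 lie 19.4 kb apart on the plus strand. Mir30a (ENSMUSG00000065405.3, 23272269 to 23272339) has no annotated host on its strand. It had 10684 reads (3899 CPM) in replicate 1 and 14548 reads (4535 CPM) in replicate 2, a mean of 4217 ± 450 CPM and rank 44. Mir30c-2 (ENSMUSG00000065567.1, 23291701 to 23291784), inside an exon of the long non-coding RNA gene Gm27028, had 578 reads (211 CPM) and 643 reads (200.4 CPM), a mean of 206 ± 7.41 CPM and rank 177. Mir30a was 18.5-fold and 22.6-fold above its partner in replicates 1 and 2, or 21.9-fold and 26.8-fold per kilobase of hairpin. Reads that also match Mir30c-1 are missing from the Mir30c-2 count, so these folds are uncertain as gaps between the mature microRNAs. The pair held 22.3% and 22.4% of the family's reads.

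The chromosome 4 pair lies in introns of Nfyc, which encodes a subunit of the transcription factor NF-Y, on the strand of that gene and 2.98 kb apart. Mir30e (ENSMUSG00000065409.1, 120772606 to 120772697) had 6597 reads (2407 CPM) in replicate 1 and 9203 reads (2869 CPM) in replicate 2, a mean of 2638 ± 326 CPM and rank 63. Mir30c-1 (ENSMUSG00000065490.1, 120769534 to 120769622) had 400 reads (146 CPM) and 324 reads (101 CPM), a mean of 123 ± 31.8 CPM and rank 202. Mir30e was 16.5-fold above Mir30c-1 in replicate 1 and 28.4-fold in replicate 2 (16.0-fold and 27.5-fold per kilobase of hairpin). The Mir30c-1 count leaves out reads that also match Mir30c-2, so these folds are uncertain as gaps between the mature microRNAs. On the log2 scale the difference within this pair had an SD of 0.55 over the libraries, against 0.21 for the pair on chromosome 1 and 0.19 for that on chromosome 15. The pair held 13.8% and 14.0% of the family's reads.

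The order of the members was Mir30d, Mir30a, Mir30e, Mir30c-2, Mir30c-1 and Mir30b by mean CPM, and the same per kilobase of hairpin. The libraries' values did not overlap between neighbours in this order, with 1 exception. Mir30c-1 was above Mir30b in replicate 1 (146 against 119 CPM) and below it in replicate 2 (101 against 113 CPM), so their order was not resolved. The places of Mir30c-2 and Mir30c-1 rest only on reads that tell these loci apart, so they are uncertain as places of the mature microRNAs. The order itself was not tested.

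The family's composition varied little for its abundant members. Mir30d held 63.1 ± 0.182% of the family's reads, Mir30a 21.3 ± 0.241% and Mir30e 13.3 ± 0.378% (SD, n = 2). The miR-30c genes, each counted only where a read tells them apart, held 1.93% (exact binomial 95% interval 1.81 to 2.06%) in replicate 1 and 1.43% (1.34 to 1.52%) in replicate 2. Mir30b held 0.644% (0.576 to 0.718%) and 0.532% (0.479 to 0.590%).

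Mir384, the seed relative on the X chromosome (ENSMUSG00000065499.1, 105344282 to 105344369, minus strand), had 523 reads (191 CPM) in replicate 1 and 615 reads (192 CPM) in replicate 2. It was thus at the level of the low members, and made up 1.02% and 0.899% of the reads of the 6 members and Mir384 together.

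Mir30f is annotated over the same bases as Mir30e, on the opposite (plus) strand. Its mature strand is the reverse complement of a part of the Mir30e hairpin and covers 19 of the 22 nt of miR-30e-3p; it is shown because reads without strand could belong to either gene. Its seed, in capitals, is shifted by 1 base from that of the family.
miR-30f: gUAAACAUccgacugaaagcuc

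On the RNA strand Mir30f had 0 reads in both libraries, so a level of as much as 1.09 CPM (replicate 1) or 0.935 CPM (replicate 2), each worth 3 reads, remains possible. The 6597 and 9203 reads counted opposite to Mir30f equal the counts of Mir30e in number. In the deposited column that ignores strand both loci stood at 0, and that column alone had reads in its row of ambiguous reads (190370 in replicate 1 and 216847 in replicate 2). The other 5 members had the same counts with and without regard to strand, and no member had a read on its opposite strand.

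**Figure D2:**
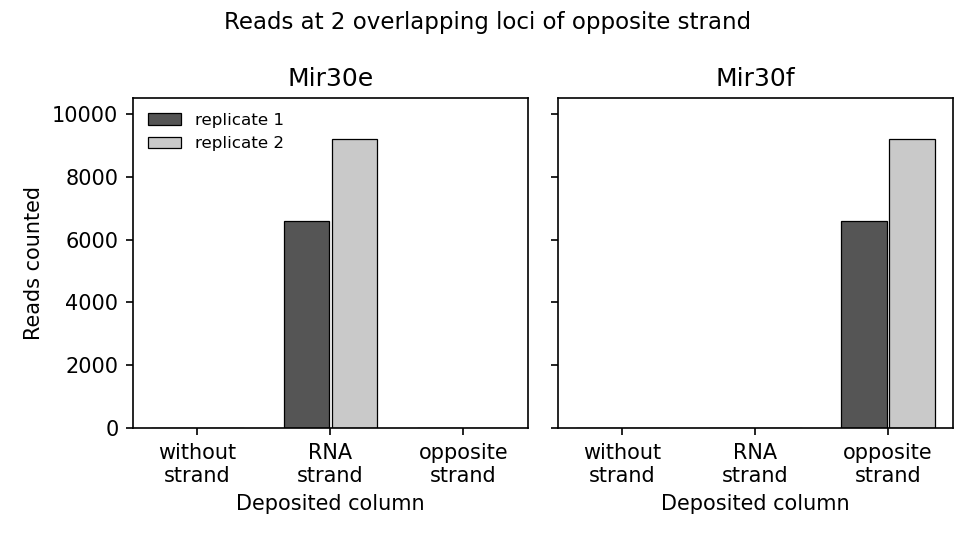
Reads counted at Mir30e and Mir30f, which overlap on opposite strands, in the 3 deposited columns (without strand, RNA strand, opposite strand) for replicate 1 (dark bars) and replicate 2 (light bars). Mir30e had 6597 and 9203 reads on its RNA strand and Mir30f had 0; both were at 0 in the column without strand.

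How far each member differed between the libraries was examined next, with reads scaled by the trimmed mean of M values (TMM) and a two-sided exact binomial test at each of the 389 detected loci, adjusted by Benjamini and Hochberg over all of them. This compares 2 libraries and covers counting error only. Mir30a, Mir30d and Mir30e were close to equal, with log2 ratios of replicate 2 over replicate 1 of 0.046, 0.017 and 0.081, and adjusted p of 0.0234, 0.172 and 0.00112 by the exact binomial test. Mir30c-2, Mir30b and Mir30c-1 were lower in replicate 2, with log2 ratios of −0.25, −0.25 and −0.70 and adjusted p of 0.00615, 0.0399 and 2.14e-10 by the same exact test.

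Altogether 5 of 6 members passed the test, 2 higher and 3 lower in replicate 2. Of all detected loci 58.4% passed, 28.8% higher and 29.6% lower, so single members are no exception in this pair of libraries. No member differed by 2-fold or more, against 11.3% of detected loci. The log2 ratio had an SD of 0.70 over all detected loci, and 5 of the 6 members lay within 1 SD of 0, as did 75.8% of all detected loci; Mir30c-1 lay just outside. The members' median log2 ratio was −0.11, and that of all detected loci −0.0098.

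**Figure D3:**
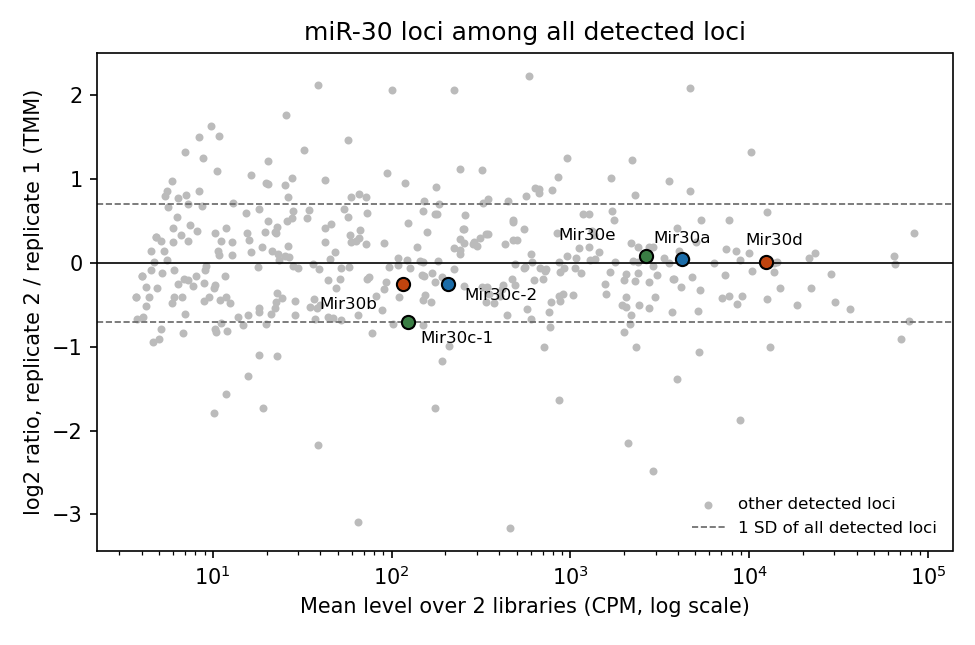
log2 ratio of replicate 2 over replicate 1 (TMM-scaled reads) against mean level (CPM, log scale) for the 389 detected loci (grey) with the 6 miR-30 loci coloured by genomic pair; dashed lines mark 1 SD of all detected loci. Mir30d, Mir30a and Mir30e lie near 0, and Mir30c-1 lies at −0.70.

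The choice of scaling moved these ratios together. Scaled by library totals alone, the median of all detected loci rose to 0.16; Mir30a, Mir30d and Mir30e then had log2 ratios of 0.22, 0.19 and 0.25 and passed the test, as did Mir30c-1 at −0.53, whereas Mir30b (−0.08, adjusted p = 0.553) and Mir30c-2 (−0.07, adjusted p = 0.454) did not pass the exact binomial test. The split of all calls was then 159 higher and 77 lower, against 112 and 115 with TMM. Under each scaling run the abundant members had a positive and the low members a negative ratio. The abundant member of each pair had a higher ratio than its partner. A scaling shifts the log2 ratios of all loci by the same amount, so it cannot change this order within a pair.

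For each member, the locus outside the family with the nearest levels was taken by Euclidean distance of log2(CPM + 1) over both libraries. With 2 libraries this is a likeness of level more than of pattern. Mir30d was nearest to Mir99b (13715 ± 474 CPM, distance 0.21), Mir30a to Mir378a (4417 ± 483 CPM, distance 0.095) and Mir30e to Mir431 (2756 ± 495 CPM, distance 0.11). Mir30c-2 was nearest to Mir384 (191 ± 0.607 CPM, distance 0.16). Both Mir30b and Mir30c-1 were nearest to Mir377 (110 ± 12.2 CPM), at distances of 0.15 and 0.30.

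The miR-30 family was set beside the miR-181, miR-26 and miR-29 families, which also combine genes of identical mature strands with relatives of their own sequence. The miR-30 family held a larger share of assigned reads than each of them in both libraries. The miR-181 family held 1.37% and 1.28%, the miR-26 family 0.308% and 0.632%, and the miR-29 family 0.153% and 0.159%, against the 1.85% and 2.11% of miR-30. Shares were not tested between families, and reads matching several loci are missing from all 4.

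Mir30d, with 63.3% and 63.0% of its family's reads, led its family more than Mir181b-2, with 42.8% and 34.8%, and less than Mir29a, with 78.1% and 87.2%, or Mir26b, with 99.5% and 99.4%. The lowest miR-30 member, Mir30b at 116 CPM, stood above the lowest members of the other families, Mir181a-2 at 23.0, Mir29b-1 at 22.5 and Mir26a-1 at 10.1 CPM. Each of these loci has a copy of the same name (Mir181a-1, Mir29b-2 and Mir26a-2), and reads matching several loci were set aside. The leading shares and lowest levels therefore compare only reads assigned to 1 locus. What the set-aside reads would change in them was not tested. By the same exact binomial test 1 of 6 miR-181 loci was higher in replicate 2 and 4 were lower, 0 of 4 miR-29 loci were higher and 2 lower, and 1 of 2 detected miR-26 loci was higher and 0 lower, beside the 28.8% higher and 29.6% lower of all detected loci. Their median log2 ratios were −0.28, −0.57 and 0.73, and that of the miR-30 loci was −0.11.

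**Figure D4:**
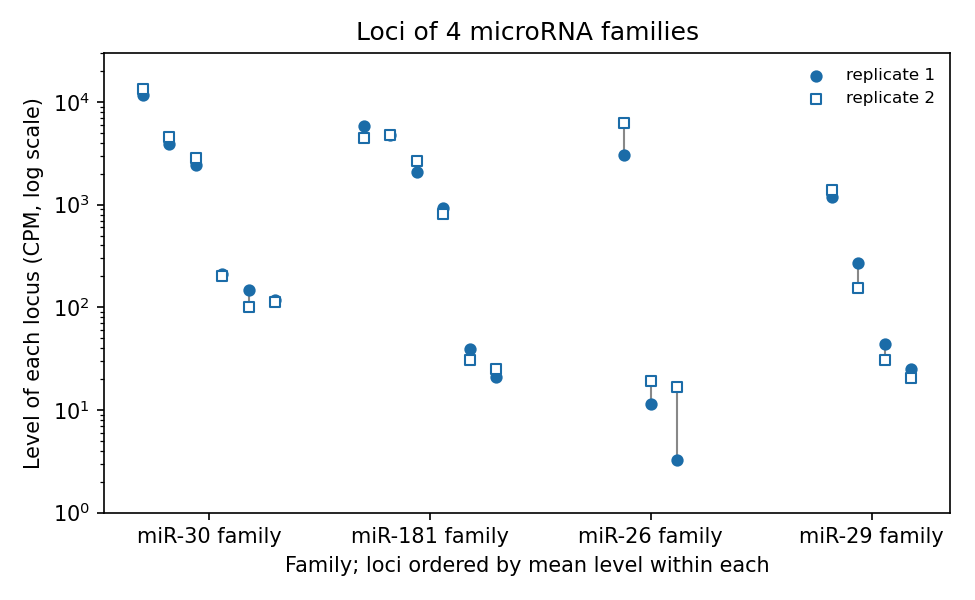
Level of each locus (CPM, log scale) of the miR-30, miR-181, miR-26 and miR-29 families in replicate 1 (circles) and replicate 2 (squares), joined by a line and ordered by mean level within a family. Mir30d is the highest point, and the lowest miR-30 locus stands at 116 CPM on average.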

How the data were processed

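Small RNA libraries from left cerebral cortex were analysed, 1 group of 2 replicates. The authors deposited whole read counts per microRNA gene, with mm10 as the assembly and M21 as the GENCODE release, per the file lists deposited beside each library. The sources used here do not name the trimming, aligner or counter. Library sizes excluded the 4 rows that name no gene, which on the RNA strand held 18.1% and 22.8% unmapped, 40.6% and 37.9% multiply mapped, 5.93% and 6.03% unassigned and 0 ambiguous reads in replicates 1 and 2. What the 3 count columns hold was read from the values; column 3, the RNA strand, was used.

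Counts were scaled to CPM. Between-library ratios used edgeR 4.0.16 (TMM) and exact binomial tests (SciPy 1.17.1) on loci with at least 10 reads in each library, threshold 0.05 after Benjamini-Hochberg adjustment over 389 loci; no contrast exists for a quasi-likelihood test, and edgeR's common dispersion gave a coefficient of variation of 0.317. The procedure was tested on simulated counts that held counting error alone, so this check does not cover further spread between libraries. Alternatives were the column without strand, minima of 5, 50 or no reads, DESeq2 1.42.0 size factors, library totals, all reads as denominator, hairpin length, a pseudocount of 5 in place of 1, a 2-fold rule, and each replicate left out.

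Identifiers matched GENCODE M21 for all 2202 loci; sequences came from a RefSeq table, whose entries on 1 chromosome were not searched. Named loci were the members, seed relatives, nearest loci, marker loci and the comparison families; Mir30f and Mir6958 fall outside this rule and were named after their values or sequences were seen. Members and lists were chosen with earlier results of these data known.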

Additional observations from a re-analysis of the deposited data

Results flagged for a closer look

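Reads stood in a deposited column that the comparisons did not use. At Mir30f, 6597 reads in replicate 1 and 9203 reads in replicate 2 were counted on the strand opposite to the gene, above the 3 reads that a count of 0 allows. The same numbers were counted on the RNA strand of Mir30e, which is annotated over the same bases. With 2 libraries, no search for an outlying one was made.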

How the results depend on the processing

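In the column without strand Mir30e had 0 reads (the cause was not tested), so its difference from Mir30c-1 turned from 4.42 to −7.04 (log2), Mir30d held 72.8% in place of 63.1% of the family's reads, and 5 members were detected. Scaled to all reads of a library, the family share was 0.679% in place of 1.98%, a larger denominator. By the 2-fold rule 0 members differed between the libraries, beside 11.3% of all detected loci. The exact binomial test called 5 members, beside 58.4% of detected loci. Under the other scalings and minima it called 4 to 6 members, beside 31.9 to 74.6% of the loci tested, with the same sign for each member throughout.

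With 1 replicate left out, each value is that of the other replicate, so this shows the range of the replicates and is no further check. The family share was then 1.85 to 2.11% and the Mir30d share 63.0 to 63.3%. Within pairs the log2 differences were 4.20 to 4.49 (Mir30a over Mir30c-2), 6.61 to 6.87 (Mir30d over Mir30b) and 4.03 to 4.81 (Mir30e over Mir30c-1). A pseudocount of 5 left all 3 differences within 1 SD. No paired analysis was possible because there is 1 group, and no library comparison was possible with 1 library. With 324 to 643 reads, counts at Mir30b, Mir30c-1 and Mir30c-2 were the least precise.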
